A study of Homo sapiens with 8 samples.

Results

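Levels of 30 cadherin and desmosomal cadherin genes were compared across 8 human cancer cell lines that express the receptor ERBB4. The 30 genes are the listed CDH, DSC and DSG members, chosen by gene symbol and not by their values. All 30 were found, of 58202 gene identifiers in all, and none of their symbols was repeated. They comprise 5 type I classical cadherins, 13 type II classical cadherins, 5 other cadherins, 3 desmocollins and 4 desmogleins.

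The lines were cultured for 48 hours in plates, with no agent named in the labels, and gave 1 library each. Of the lung lines, H522 derives from non-small cell, H661 from large cell and H146 from small cell lung cancer. KLE came from an endometrial adenocarcinoma, HEC59 from an endometrial carcinoma and COV318 from an epithelial-serous carcinoma of the ovary. H716 came from a colorectal adenocarcinoma of the cecum and 1321N1 from an astrocytoma, labelled as glial. The series set out to compare lines that respond to ibrutinib with lines that do not, but the labels do not place single lines in these groups, so lines were compared by tissue. Lines of one tissue are different tumours, and p-values measure the spread between lines.

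Cadherins are transmembrane proteins that bind like molecules on the next cell in the presence of calcium. Classical cadherins hold the actin cytoskeleton through catenins at adherens junctions. Desmogleins and desmocollins hold intermediate filaments through plakoglobin, plakophilins and desmoplakin at desmosomes, which are typical of epithelia. E-cadherin (CDH1) is the classical cadherin of epithelia, N-cadherin (CDH2) that of neural and mesenchymal cells, and most type II cadherins are best known from the nervous system or mesenchyme.

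Values are FPKM, fragments scaled by transcript length and library size, and a gene is called detected at an FPKM of 1 or more. Each line had 12205 to 13300 detected genes. The files give no read totals, so absolute depth is unknown. From the steps between low values, depth relative to KLE, the shallowest line, reached 2.66 in 1321N1. The same steps divided the lines into a set of H522, H661, KLE and H716 and a set of 1321N1, HEC59, COV318 and H146, and each tissue comparison was also fitted with this line set as a covariate. Tissue markers were uneven. All 4 Mullerian markers were detected in KLE and HEC59 and 3 in COV318. Of these markers PAX8 was also detected in 1321N1, at 5.84, and in H522, at 1.68. The ovarian marker WT1 was at 5.47 in COV318, lower than in KLE (28.7) and H522 (12.4). Of 6 lung markers only NKX2-1 was detected, in H661 at 11.2. H716 had CDX2 at 1.31, VIL1 at 1.07 and LGALS4 at 0.376, with CDX1 listed at 0, and VIL1 was higher in H146, at 8.74. In 1321N1, GFAP was at 3.10 and the other 4 glial markers were below 1. In H146, GFAP was at 1.57 and AQP4, another glial marker, at 4.46, and AQP4 was also detected in KLE. The glial markers summed to 6.03 in H146 and 3.11 in 1321N1, so they did not single out 1321N1.

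Promoter sequences are shown for CDH7, the member that separated the lung lines, and for DSC2, DSC3 and DSG2, the desmosomal cadherins detected in at least 2 lines. Each is the 250 bases before the outermost annotated start, from RefSeq on GRCh38.p14, a build other than the GRCh37 of the deposited values. CDH7 is on the plus strand at chr18:65750002-65750251 and DSG2 on the plus strand at chr18:31497927-31498176. DSC2 is on the minus strand at chr18:31102422-31102671 and DSC3 on the minus strand at chr18:31042743-31042992. Capitals mark matches to CACCTG on either strand (written CAGGTG on the other), the E-box form bound by ZEB and SNAI repressors.
CDH7: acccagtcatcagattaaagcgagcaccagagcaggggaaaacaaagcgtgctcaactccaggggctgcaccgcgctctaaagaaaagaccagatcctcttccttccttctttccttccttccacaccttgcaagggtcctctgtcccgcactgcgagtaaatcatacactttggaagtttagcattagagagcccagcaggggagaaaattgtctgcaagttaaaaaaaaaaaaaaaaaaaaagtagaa
DSC2: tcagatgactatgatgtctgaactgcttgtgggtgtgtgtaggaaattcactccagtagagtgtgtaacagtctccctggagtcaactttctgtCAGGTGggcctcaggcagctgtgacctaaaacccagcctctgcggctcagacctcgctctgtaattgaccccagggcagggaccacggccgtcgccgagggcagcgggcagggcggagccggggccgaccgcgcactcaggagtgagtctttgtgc
DSC3: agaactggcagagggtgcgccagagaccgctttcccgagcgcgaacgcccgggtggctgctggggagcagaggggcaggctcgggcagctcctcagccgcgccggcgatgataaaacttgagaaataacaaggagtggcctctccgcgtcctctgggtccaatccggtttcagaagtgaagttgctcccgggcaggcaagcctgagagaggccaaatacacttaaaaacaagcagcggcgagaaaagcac
DSG2: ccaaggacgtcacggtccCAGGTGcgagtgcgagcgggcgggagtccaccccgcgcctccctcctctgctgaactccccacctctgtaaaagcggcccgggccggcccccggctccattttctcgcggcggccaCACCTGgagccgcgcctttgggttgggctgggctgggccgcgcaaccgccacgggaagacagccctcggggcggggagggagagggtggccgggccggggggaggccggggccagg
The motif was found once before DSC2, with its far end 156 bases from the start, and in 2 places before DSG2, the farther at 232 bases. It was not in the windows of CDH7 and DSC3. Of 35116 promoter windows of this length 17.5% held it. GC content was 45.6% before CDH7, 59.6% before DSC2, 60.4% before DSC3 and 75.2% before DSG2, beside a median of 58% over all windows. CDH7 and DSC2 each have a second annotated start in the table, whose windows had no match and a GC content of 78.4% and 66.8%, so the GC content before CDH7 lies on either side of the median depending on the start. The table held a window for 18 of the 30 members.

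In RefSeq order the desmosomal cadherin genes are neighbours on chromosome 18, as DSC3, DSC2, DSC1, DSG1, DSG4, DSG3 and DSG2, with CDH2 next to DSC3. CDH7 and CDH19 are neighbours on the same chromosome, and CDH1 lies beside CDH3 on chromosome 16. Of these neighbours, DSC2 and DSC3 were detected in the same lines, whereas the other adjacent pairs named here were not. In the lines with CDH7, its neighbour CDH19 did not exceed 0.445, and CDH3 was listed at 0 in KLE and HEC59, the lines with most CDH1.

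Of the 30 members, 24 were detected in at least 1 line and none in all 8. Of these 24, 10 were detected in a single line, or 41.7%. For comparison, 10.1% of the 13954 protein-coding genes detected in any line were detected in 1 line only, and 56.6% in all 8. The 6 members below 1 throughout were CDH3 (P-cadherin), CDH16, CDH22, CDH26, DSG1 and DSG3, and their highest values were 0.350, 0.341, 0.777, 0.549, 0.572 and 0.138. DSG1 and DSG3 are desmogleins of stratified epithelia. Of 5 squamous and epidermal markers, KRT1 and KRT14 were below 1 in all lines and KRT5 reached 1.19 in KLE, but KRT10 was at up to 3.67, in 1321N1, and TP63 at 11.3 in H661, 7.15 in H146, 4.18 in 1321N1 and 1.90 in KLE.

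**Figure D1:**
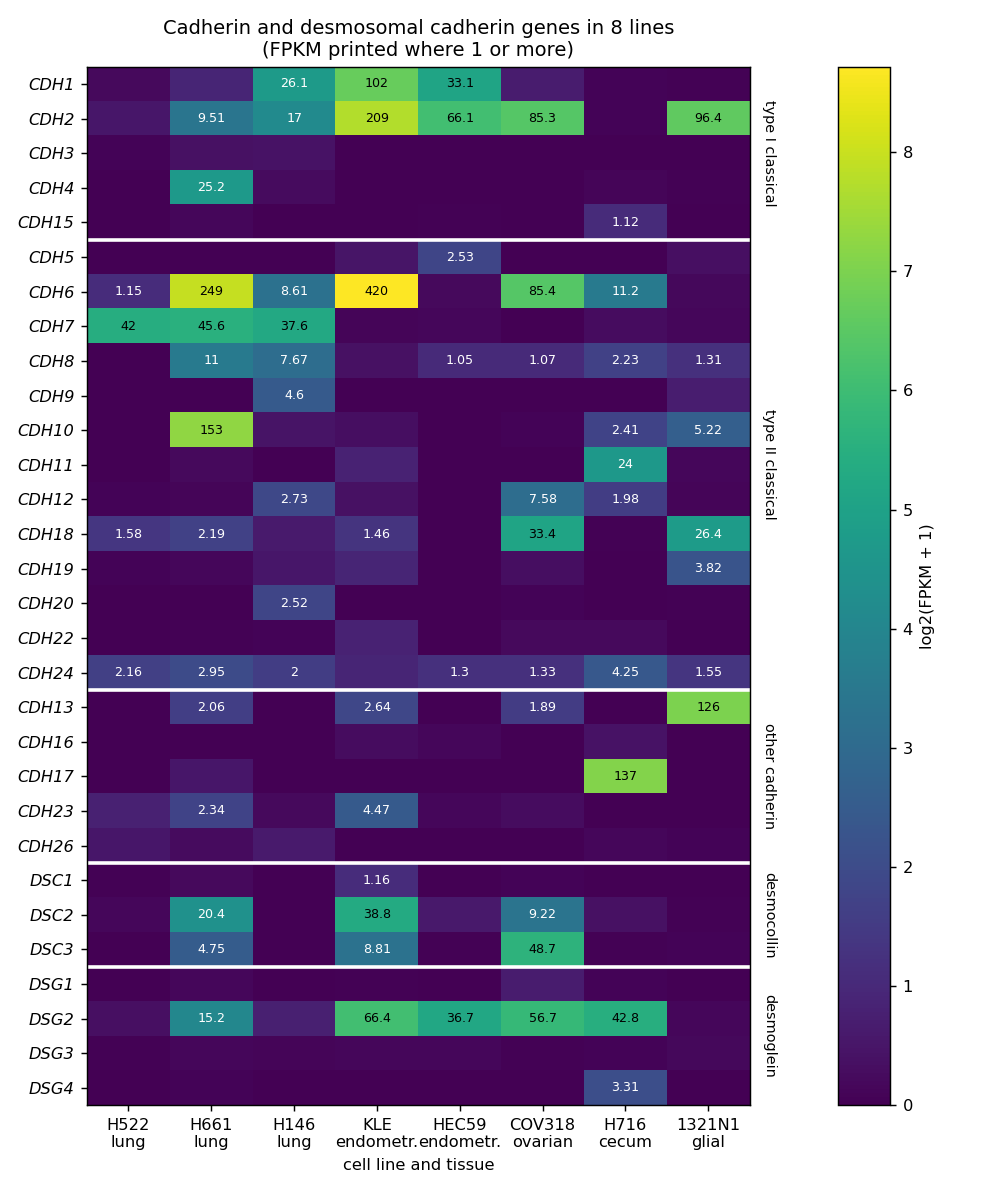
FPKM of the 30 members (rows, grouped by class) in the 8 lines (columns, with tissue), coloured by log2(FPKM + 1), with the FPKM printed where it is 1 or more. No row is filled in all 8 lines: CDH24 is filled in 7, CDH2, CDH6 and CDH8 in 6, and CDH7 in the 3 lung lines only.

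Each line had its own leading cadherins. In H522 CDH7 alone made up 85.1% of the summed FPKM of the 30 members, which was 49.4, the lowest of the 8 lines. H661 had a sum of 546, led by CDH6 (kidney cadherin) with 45.6% and CDH10 with 28.1%. KLE had the highest sum, 859, with 48.9% from CDH6 and 24.3% from CDH2. H146 had a sum of 112, shared by CDH7 (33.5%), CDH1 (23.2%) and CDH2 (15.2%).

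CDH17, the liver and intestine cadherin, took 59.1% of the sum of 232 in H716, the cecum line. CDH13 (T-cadherin, which is anchored in the membrane by a lipid and lacks the catenin-binding tail) took 48.0% of 263 in 1321N1. CDH2 led HEC59 with 46.5% of 142. In COV318, with a sum of 333, CDH6 and CDH2 took almost equal shares, 25.7% and 25.6%, and DSG2 and DSC3 followed with 17.1% and 14.6%. CDH6 or CDH7 therefore led 5 of the 8 lines, and E-cadherin led none.

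**Figure D2:**
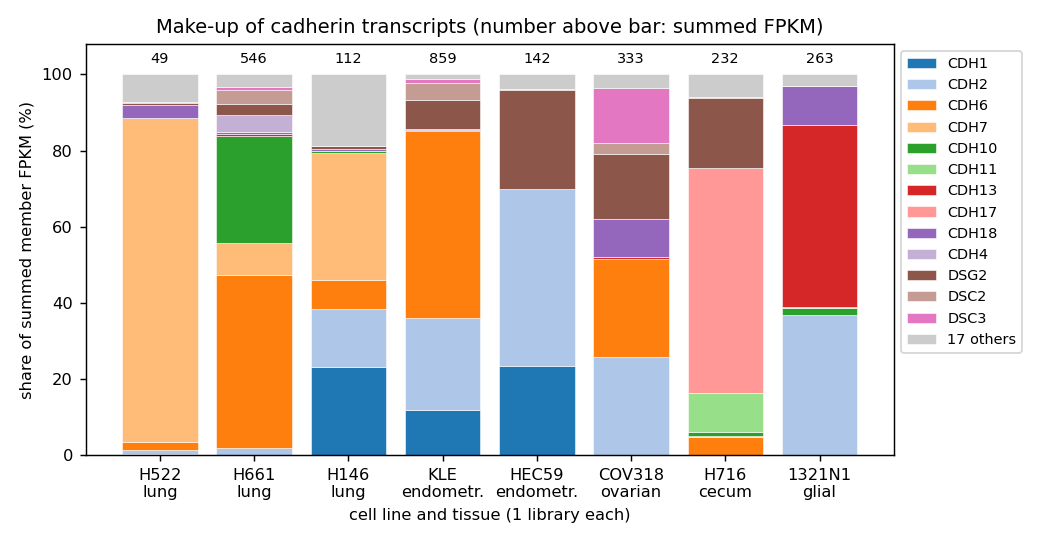
Share of the summed member FPKM (vertical axis, percent) taken by 13 members and by the other 17 together in each line (horizontal axis), with the sum above each bar. CDH7 takes 85.1% in H522, CDH17 59.1% in H716 and CDH13 48.0% in 1321N1, while COV318 has no member above 25.7%.

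Among type I classical cadherins, CDH1 was at 102 in KLE, 33.1 in HEC59 and 26.1 in H146. It was at 0.888 in H661, 0.588 in COV318, 0.178 in H522, 0.0661 in H716 and 0.0286 in 1321N1. E-cadherin was thus detected in both endometrial lines and the small cell line only. In a bulk library a lower level can mean fewer expressing cells or less RNA per cell, which cannot be told apart. The epithelial markers EPCAM, KRT8, KRT18 and KRT19 summed to 2138 in KLE, 498 in HEC59, 346 in H146 and 253 in COV318 and at most 71.4 elsewhere, and their part in the level of CDH1 was not tested. CDH2 was at 209 in KLE, 96.4 in 1321N1, 85.3 in COV318, 66.1 in HEC59, 17.0 in H146 and 9.51 in H661, and at 0.446 in H522 and 0.0487 in H716.

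CDH1 and CDH2 were not alternatives to each other: KLE, HEC59 and H146 had both. On the log2(FPKM + 1) scale CDH1 minus CDH2 was -1.03 in KLE, -0.97 in HEC59 and 0.58 in H146, the 1 line of the 6 with either gene where CDH1 was the higher. It was -2.48 in H661, -5.76 in COV318 and -6.57 in 1321N1. H522 and H716 had neither gene at 1. Across the 8 lines, each a single point from its own library, r between CDH1 and CDH2 was 0.536 and rho 0.357, and r was 0.155 without KLE and HEC59.

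CDH4 (R-cadherin), a close relative of CDH2, was at 25.2 in H661 and at most 0.185 elsewhere. CDH15 (M-cadherin of muscle) was at 1.12 in H716 and at most 0.0992 elsewhere. The muscle factors MYOD1 and MYOG were listed at 0 in all 8 lines.

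CDH7 set the lung lines apart from all others. Its FPKM was 45.6 in H661, 42.0 in H522 and 37.6 in H146, against 0.209 in H716, 0.120 in 1321N1, 0.101 in HEC59, 0.0772 in KLE and 0 in COV318. The lung lines lay close together, and their range did not meet that of the others. The 5 neuroendocrine markers summed to 340 in H146, 3.44 in H522 and 1.29 in H661, and to 82.9 in H716, where CDH7 was below 1. Their part in the level of CDH7 was not tested. On the log2 scale the lung mean was 5.41 ± 0.14 (SD, n = 3) and the mean of the others 0.14 ± 0.10 (SD, n = 5), a difference of 5.28 (SE 0.33, limma adjusted p = 0.000571). The cells differed in most other cadherins: H661 had 13 detected members, H146 9 and H522 4, and the only members detected in all 3 were CDH6, CDH7 and CDH24.

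CDH6 had the widest spread of the tested members. It was at 420 in KLE, 249 in H661, 85.4 in COV318, 11.2 in H716, 8.61 in H146 and 1.15 in H522, against 0.165 in HEC59 and 0.128 in 1321N1. The endometrial lines were at opposite ends of this order, and so were H661 and H522 among the lung lines.

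CDH10, a type II cadherin known from brain, was highest in H661 (153), followed by 1321N1 (5.22) and H716 (2.41), and did not exceed 0.375 in the remaining 5. CDH8, also known from brain, was at 11.0 in H661, 7.67 in H146, 2.23 in H716, 1.31 in 1321N1, 1.07 in COV318 and 1.05 in HEC59, and at 0.315 in KLE and 0 in H522. H661 thus held the highest level of both. CDH18 was at 33.4 in COV318 and 26.4 in 1321N1, at 1.46 to 2.19 in KLE, H522 and H661, and at most 0.535 in H146, H716 and HEC59.

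CDH12 was highest in COV318 (7.58), followed by H146 (2.73) and H716 (1.98), with no more than 0.302 in any other. The files also list 4 CDH12 pseudogenes, the highest of them CDH12P2 at 2.79 in H146, and the sources used here do not say how reads matching several copies were counted, so the level of CDH12 is uncertain. CDH11 (OB-cadherin, of osteoblasts and mesenchyme) was at 24.0 in H716 and at most 0.778 elsewhere. It was at 0.111 in 1321N1, the line with the highest summed level of the 4 mesenchymal markers, 3537.

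CDH24 differed from the other members in its even, low level. It was at 4.25 in H716, 2.95 in H661, 2.16 in H522, 2.0 in H146, 1.55 in 1321N1, 1.33 in COV318, 1.30 in HEC59 and 0.858 in KLE. Its SD over the lines was 0.48 on the log2 scale. The median SD was 2.29 over the 14 members detected in at least 2 lines and 0.67 over the 15650 genes that met the same minimum. The order of CDH24 ran against that of CDH2, with r = -0.871 and rho = -0.881 over the 8 lines, and r = -0.952 without H716 and H522. The r of -0.871 was the lowest of the 91 pairs of these 14 members, and the order of CDH24 rests on small differences.

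Besides CDH11, 4 type II members were detected in a single line each. CDH9 was at 4.60 in H146, and CDH20 at 2.52 in the same line. CDH19, known from Schwann cells and their precursors, was at 3.82 in 1321N1. CDH5 (VE-cadherin, of endothelium) was at 2.53 in HEC59 and at most 0.398 elsewhere. In HEC59 the other endothelial markers PECAM1, VWF, KDR and TEK summed to 0.0593, with PECAM1, KDR and TEK listed at 0. In the other lines these markers summed to between 0 in H716 and 44.8 in H522, where TEK alone was at 44.7 and CDH5 at 0.

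Among the other cadherins, CDH13 was at 126 in 1321N1, 2.64 in KLE, 2.06 in H661, 1.89 in COV318 and 0.0123 in H522, and was listed at 0 in H716, HEC59 and H146. CDH17 was at 137 in H716 and at most 0.445 elsewhere. CDH23, known from the tip links of hair cells in the inner ear, was at 4.47 in KLE and 2.34 in H661 and at most 0.728 elsewhere.

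Desmogleins and desmocollins were present in different sets of lines. DSG2, the desmoglein of simple epithelia, was at 66.4 in KLE, 56.7 in COV318, 42.8 in H716, 36.7 in HEC59 and 15.2 in H661. H146 (0.709), H522 (0.287) and 1321N1 (0.108) were below 1. The antisense gene DSG2-AS1 did not exceed 0.622, and the sources used here do not say whether counting was by strand.

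DSC2, the desmocollin of simple epithelia, was at 38.8 in KLE, 20.4 in H661 and 9.22 in COV318, at 0.503 in HEC59, 0.310 in H716, 0.108 in H522 and 0.0324 in 1321N1, and was listed at 0 in H146. DSC3 was at 48.7 in COV318, 8.81 in KLE and 4.75 in H661 and at most 0.0520 elsewhere. The same 3 lines held both desmocollins, whose promoters are shown above, but KLE led for DSC2 and COV318 for DSC3. DSC1 was at 1.16 in KLE and at most 0.157 elsewhere. DSG4 was at 3.31 in H716 and at most 0.0662 elsewhere.

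KLE, COV318 and H661 therefore had both kinds of desmosomal cadherin, and H716 and HEC59 had a desmoglein with no desmocollin at 1. H522, H146 and 1321N1 had neither kind. Plaque genes were detected in these lines without desmosomal cadherins, DSP and JUP in H522 and H146 but not in 1321N1. In 1321N1 the plaque genes detected were PERP, at 223, and PKP2. DSP, which encodes desmoplakin, was at 59.7 in H146 and 38.9 in H522, against 4.09 in H661, 30.8 in H716, 38.1 in COV318, 72.8 in HEC59 and 98.4 in KLE. JUP (plakoglobin, shared by both kinds of junction) was at 23.1 in H146 and 21.8 in H522, and at 43.1, 36.6, 25.0, 9.50 and 4.72 in COV318, KLE, HEC59, H661 and H716.

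In 1321N1, with no desmosomal cadherin detected, DSP was at 0.0461 and JUP at 0.0474, and it was the only line with either below 1. PKP2, the plakophilin of simple epithelia and heart, was at 56.2 in COV318, 49.5 in KLE, 45.5 in HEC59, 23.3 in H146, 2.30 in 1321N1 and 1.01 in H522, and at 0.0398 in H661 and 0.00946 in H716. H661 and H716, which had DSG2, thus had no detected PKP2. PKP1, a plakophilin of stratified epithelia, did not exceed 0.212, and PKP3 reached 1.35 in HEC59 alone.

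**Figure D3:**
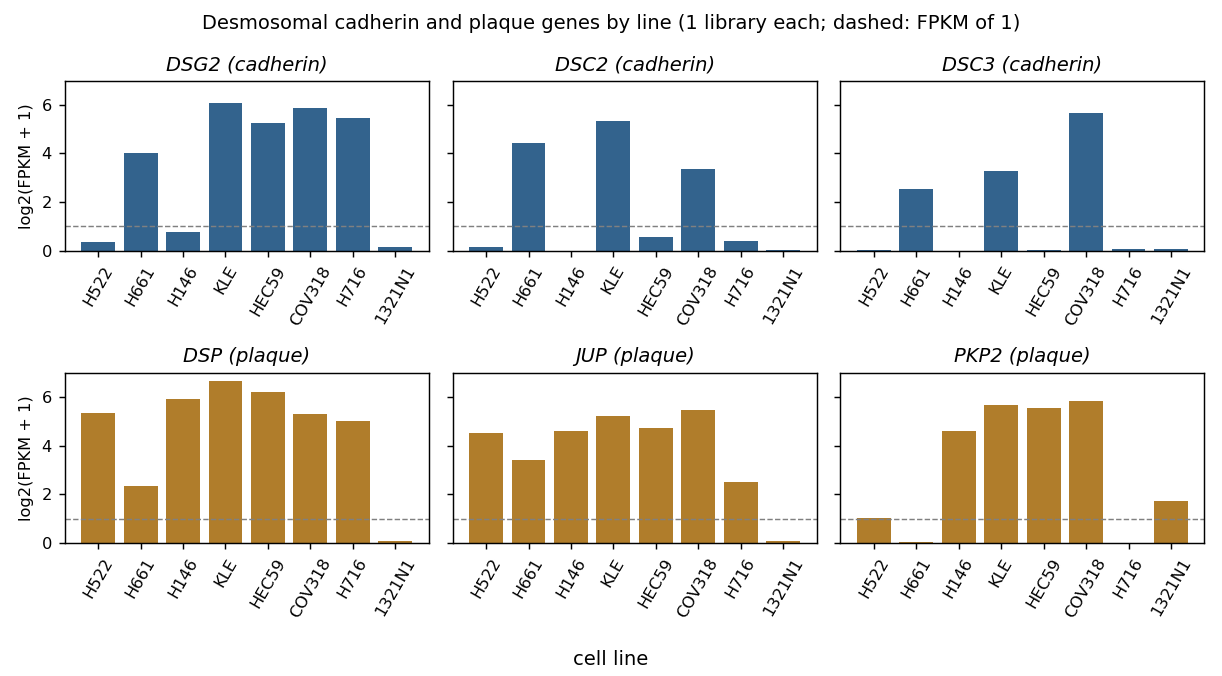
log2(FPKM + 1) (vertical axis) of 3 desmosomal cadherin genes (upper panels) and 3 plaque genes (lower panels) in each of the 8 lines (horizontal axis), with a dashed line at an FPKM of 1. H522 and H146 have DSP and JUP above the line and no cadherin above it, and H716 and HEC59 have DSG2 without DSC2 or DSC3.

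The catenins link classical cadherins to actin. CTNNB1, CTNNA1 and CTNND1 had SDs of 0.53, 0.61 and 0.92 over the lines on the log2 scale. These lay below the median of 2.29 over the tested members. Over all genes tested the median was 0.67, above CTNNB1 and CTNNA1 and below CTNND1. CTNNB1 (beta-catenin) ranged from 40.5 in H146 to 122 in 1321N1, CTNNA1 (alpha-catenin) from 43.8 in H716 to 140 in HEC59, and CTNND1 (p120-catenin) from 10.8 in H146 to 92.3 in HEC59. H522, with the lowest summed cadherin FPKM, had CTNNA1 at 115 and CTNNB1 at 91.5. The neural alpha-catenin CTNNA2 was at 22.5 in H661 and 7.63 in H716 and at most 0.958 elsewhere, and CTNND2 was at 4.14 in KLE and at most 0.648 elsewhere. CTNNA3, another alpha-catenin, was at 26.4 in H522, 14.8 in H661, 3.82 in KLE and 1.12 in COV318 and below 1 in the remaining lines, with an SD of 1.79.

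Transcription factors that act on CDH1 were compared with it as a description over the 8 lines. ZEB1, a repressor of CDH1, was lowest in H146 (0.367) and KLE (3.34) and highest in 1321N1 (86.5) and H716 (55.7), and stood at 22.1 in H522, 15.3 in COV318, 14.0 in HEC59 and 5.79 in H661. With CDH1 it gave r = -0.703 and rho = -0.881, and r = -0.893 without KLE and HEC59. ZEB2, its relative, was at 101 in H661 and 19.7 in 1321N1, SNAI2 at 38.5 in 1321N1, and SNAI1 at most 4.30, in H522. GRHL2, an activator of epithelial genes, was at 32.6 in HEC59 and 2.81 in H146 but at 0.165 in KLE, the line with most CDH1. GRHL2 and CDH1 gave r = 0.573 and rho = 0.799, and r = 0.982 without KLE and HEC59. Without KLE and HEC59 only H146 had CDH1 at 1 or more, so the r without them leans on H146 for ZEB1 and GRHL2 alike.

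Among the 91 pairs of the 14 members detected in at least 2 lines, 3 had r of 0.8 or more. CDH6 and DSC2 had r = 0.921 (rho = 0.762), and r = 0.768 without KLE and H661. DSC2 and DSC3 had r = 0.812 (rho = 0.762), and r = 0.986 without the same lines. Without KLE and H661, COV318 was the only line left with DSC2 or DSC3 at 1 or more. The r of 0.768 and of 0.986 therefore lean on that line. CDH23 and DSC2 had r = 0.841 (rho = 0.619), which rested on KLE and H661, since r was 0.0616 without them. The median r over the pairs was 0.0641.

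In the comparison of lung lines with the other 5 lines, CDH7 was the only member called, where 0.0256% of the 15650 genes tested were called in either direction and 0.0192% as higher. It was also the only member with an unadjusted p under 0.05, a share of 5.94% over all genes. The 14 members detected in at least 2 lines could be tested, and the other 16 did not meet that minimum. CDH7 was also the only tested member whose groups did not overlap, where 2.07% of genes lay higher in the lung lines without overlap and 2.23% lower. It met the minimum for testing through the lung lines alone, so its lack of overlap repeats where it was detected and adds no support. With no filter on low values CDH7 was called as well (limma adjusted p = 0.00117). With the line set in the fit the difference was 5.24 (SE 0.35, adjusted p = 0.00399). The median difference was -0.38 over the tested members and -0.02 over all genes.

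DSG2 differed by -2.83 (SE 1.39, limma adjusted p = 0.829) between lung and other lines, and CDH2 by -2.68 (SE 1.60, adjusted p = 0.864). Neither passed, and in both the groups overlapped: all 3 lung lines were above 1321N1 for DSG2 and above H716 for CDH2. No gene of the partner lists was called: 0 of 6 catenins, 0 of 5 plaque genes, 0 of 8 other junction genes, 0 of 8 transcription factors and 0 of 17 other cadherin superfamily genes tested with limma, with 1, 0, 1, 0 and 0 at an unadjusted p under 0.05. The catenin was CTNNA3 (log2 difference 2.28, SE 0.91, limma adjusted p = 0.817). PVRL3, which encodes the adhesion protein nectin-3, was at 0.136 in H522, 2.08 in H146 and 18.1 in H661, and the 5 other lines ranged from 25.6 to 96.0. Its log2 difference was -3.76 (SE 0.81, limma adjusted p = 0.287). Without H661, the lung line nearest the others, it was called (-4.88, SE 0.59, limma adjusted p = 0.0478). That call followed from taking out the nearest value, and PVRL3 was not called without any other single line.

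In the comparison of endometrial lines with the other 6 lines no member was called with limma, where 0.00639% of genes were called, and 1 of the 14, CDH1, had an unadjusted p under 0.05, where 4.82% of all genes did. Its log2 mean was 5.89 ± 1.12 (SD, n = 2) against 1.12 ± 1.82 (SD, n = 6), a difference of 4.77 (SE 1.18, limma adjusted p = 0.583). Both endometrial lines were above all others, of which H146 was the nearest. Without H146 CDH1 was called, with a difference of 5.50 (SE 0.55, limma adjusted p = 0.0304). That call followed from taking out the nearest value. Without H146, CDH1 met the minimum for testing through KLE and HEC59 alone, so the call adds no support. CDH24 was lower in both endometrial lines than in any other line (difference -0.65, SE 0.44, adjusted p = 0.954). The share of all genes without overlap was 2.43% on the higher side and 4.53% on the lower side.

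CDH2 differed by 3.36 (SE 1.72, limma adjusted p = 0.954) and DSG2 by 2.89 (SE 1.61, adjusted p = 0.954) between endometrial and other lines, and the groups overlapped in both: 1321N1 and COV318 were above HEC59 for CDH2, and COV318 and H716 for DSG2. All 5 plaque genes tested had a higher mean in the endometrial lines, as did 6713 of the 15650 genes tested. The median difference of the plaque genes was 1.54 beside -0.11 over all genes, and none was called with limma (1 at an unadjusted p under 0.05). Of the plaque genes DSP alone was higher in both endometrial lines than in every other line. COV318 was above both for JUP and PKP2, and 1321N1, H146 and H716 were above both for PERP. Over the 14 members the median difference was -0.18. Among the other lists 0 of 6 catenins, 0 of 8 other junction genes, 0 of 8 transcription factors and 0 of 17 superfamily genes were called, with 0, 1, 0 and 0 at an unadjusted p under 0.05.

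**Figure D4:**
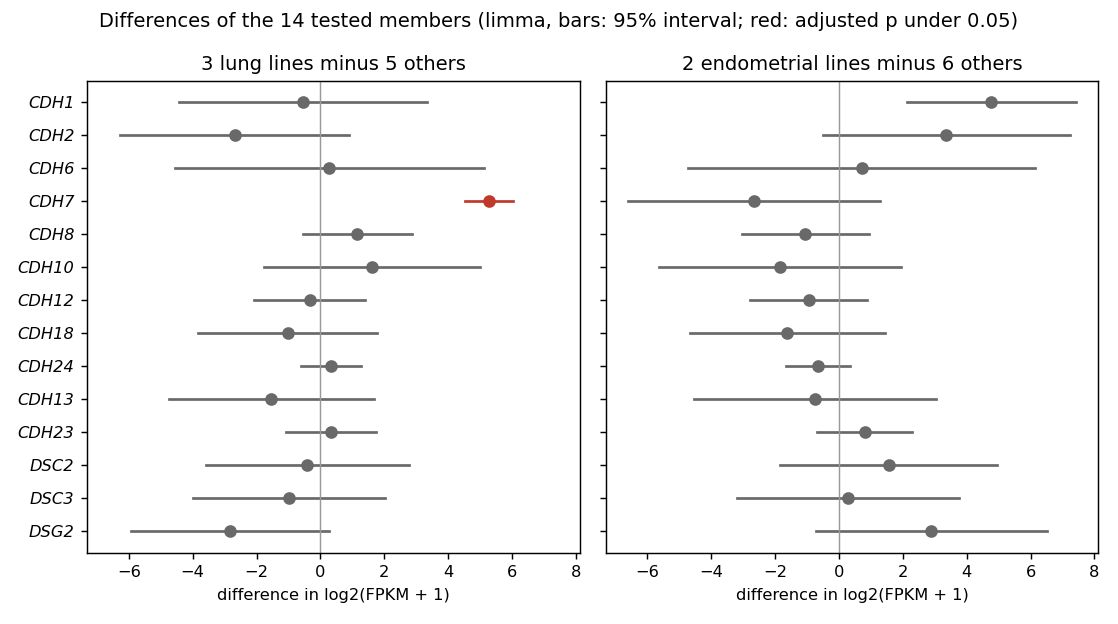
Differences in log2(FPKM + 1) (horizontal axis) of the 14 tested members between lung and other lines (left) and endometrial and other lines (right), with 95% intervals from limma; red marks an adjusted p under 0.05. Only CDH7 in the lung comparison is red, at 5.28, and CDH1 in the endometrial comparison lies at 4.77.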

How the data were processed

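RNA of 8 cell lines was sequenced, 1 library per line. The authors deposited FPKM values for 58202 gene identifiers per line, per the file headers. Tools named in the submitters' processing notes are CASAVA 1.4, TopHat2 2.0.8 and SAMtools 1.0, with build GRCh37. The sources used here do not say which program and annotation gave the values. FPKM divides by transcript length, so levels of different genes can be set side by side, but it holds no read totals and no counting interval can be given.

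Members were matched by symbol, taking the identifier with the highest mean had a symbol been repeated. Analyses used log2(FPKM + 1), a scale on which differences of low genes come out too small. Tests were made with limma 3.58.1 (R 4.3.3, trended eBayes) on the 15650 genes that reached an FPKM of 1 in 2 or more lines. Adjustment was by Benjamini-Hochberg over these genes, and the threshold was 0.05. The fits were checked on simulated data. Groups are the tissues in the labels. The line sets are the split into 4 and 4 lines in which low values (under 0.1) moved in more alike steps on average within sets than between them, as the share of genes within 0.03 (log2) of the commonest ratio. The split is not clean: KLE and COV318, of different sets, shared 17.3%, more than H522 and KLE of the same set, at 15.3%. Correlations over lines are descriptions with no p. Protein-coding genes are those of GENCODE v29, and promoters and gene order are from RefSeq.

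The members were set by gene symbol, but they and the gene lists were chosen with earlier results of these data known. All members are reported, those at an FPKM of 1 or more with their values and the others by their highest value. Of the partner lists, any gene that passed in a comparison is named, as are 15 catenin, plaque and transcription factor genes whatever their values. PVRL3 and CTNNA3 were chosen after their values were seen. Alternatives were other pseudocounts, filters, scalings and eBayes settings, the line set as a term, and leaving out each line.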

Additional observations from a re-analysis of the deposited data

Results flagged for a closer look

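Over the 8 lines, 12 of the 24 detected members had 1 line whose gap to the next, divided by the whole range on the log2(FPKM + 1) scale, exceeded 0.526, the limit for 8 values. The share of all genes over this limit was not computed, so 12 of 24 cannot be called many or few. For 10 of the 12 the high line was the only line in which the member was detected, so these counted as detected through that line alone, and a single high line was largely fixed by that choice. The lines are different tumours and not replicates of a group. The limit is passed by chance in about 1 of 20 groups of normally distributed values. That rate does not carry over to these values, of which many lie at 0: DSG4 was listed at 0 in 6 lines and CDH17 in 5.

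H716 stood apart in 4 of them, with a ratio of 0.956 for DSG4, 0.925 for CDH17, 0.874 for CDH15 and 0.821 for CDH11. H661 stood apart for CDH4 (0.948) and CDH10 (0.637). H146 did so for CDH20 (0.948) and CDH9 (0.717), and 1321N1 for CDH13 (0.733) and CDH19 (0.603). The remaining ones were DSC1 in KLE (0.811) and CDH5 in HEC59 (0.734). In each case the line was the highest. DSC1, CDH15, CDH5, CDH20, DSG4 and CDH19 reached at most 3.82 FPKM in that line, so these rest on low levels.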

How the results depend on the processing

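CDH7 was called in the lung comparison under all 17 alternatives (difference 3.19 to 7.79, adjusted p 0.000207 to 0.00915) and no other member was. In the endometrial comparison the number of members called was 0 to 1 without single lines, the 1 being CDH1 without H146, and 0 under the other alternatives; the adjusted p of CDH1 ranged from 0.0304 to 0.964. The number of partner genes called was 0 to 1 without single lines in the lung comparison, the 1 being PVRL3 without H661. No difference named for CDH1, CDH2, CDH7 or DSG2 changed sign. Over all genes, the lung comparison called 4 genes, and 11 with a pseudocount of 0.1, 2 with a pseudocount of 5, 1 with no filter, 2 with the line set as a covariate and 1 to 16 without single lines (leaving out COV318 gave 1, 1321N1 and HEC59 2 each, H661 8, H716 13 and H146 16). The endometrial comparison called 1 gene, and 4 with a pseudocount of 5, 20 with no filter and 1 to 30 without single lines (leaving out HEC59 gave 2, KLE 4, H146 5 and COV318 30). The cause was not tested. Upper-quartile scaling moved the median of all genes in the lung comparison from -0.02 to 0.09. Detected members numbered 27 at an FPKM of 0.5, 15 at an FPKM of 5 and 20 to 24 without single lines. Alternatives for the correlations and for the count of lines with a desmoglein and no desmocollin were chosen after seeing the data. The r between DSC2 and DSC3 was 0.621 with a pseudocount of 5. The count of lines was 2 for detection at 0.5 and at 5, but the lines changed at 0.5. There H146 (DSG2 at 0.709, desmocollins at 0) took the place of HEC59, whose DSC2 was at 0.503. No paired analysis was possible, since each line was a different tumour with 1 library. With 1 library per line, differences between single lines have no replicate check, and low values are limited by an unknown depth.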

Other observations

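Among 27 other cadherin superfamily genes, 24 were detected in at least 1 line. H716 led for CDHR5, a protocadherin of the intestinal brush border, at 18.9, and for DCHS2 at 8.41, and H146 led for CLSTN2, a calsyntenin, at 41.5. FAT1, a giant atypical cadherin, was at 97.0 in H716, 87.9 in 1321N1, 62.6 in H661 and 47.2 in KLE and at most 3.16 in the other 4 lines. PCDH10 was at 109 in 1321N1 and at most 7.16 elsewhere. H522 had 6 of the 27 detected and H661 14, the lowest and the highest number of the 8 lines. These genes were chosen for naming after their values were seen.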
